A study of Mus musculus with 8 samples.

Results

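Camp, the gene of the antimicrobial peptide cathelicidin, varied widely among single neutrophils of the resting bone marrow, and the cells with the most Camp were compared here with the cells with the least. The cells were the 439 neutrophils, of 1421 sequenced, that came from bone marrow (BM) of mice injected with phosphate-buffered saline (PBS). They sat on 5 plates, and within each plate they were ranked by the Camp share, which is Camp UMIs divided by all UMIs of the cell (a UMI, or unique molecular identifier, tags 1 captured mRNA molecule). The top tertile (144 cells) is called Camp-high, the bottom tertile (144 cells) Camp-low, and 151 cells lay between. Each cell was then thinned at random to 5000 UMIs without Camp, so that a level below is the mean number of UMIs of a gene per 5000 UMIs of a cell. Genes were selected on these same cells: a gene was kept when it was higher, or lower, in the Camp-high tertile of at least 4 of the 5 plates. All differences between the tertiles of the resting marrow are therefore a description without a test.

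The study picked single neutrophils by mouth pipette, after magnetic enrichment, from peripheral blood (PB) and BM of C57BL/6J mice, males between 7 and 12 weeks old, and sequenced them by SCRB-seq, a plate method that counts the 3′ ends of mRNA. Mice had received PBS (labelled 0 h) or lipopolysaccharide (LPS, a cell wall component of Gram-negative bacteria) at 0.5 mg/kg into the peritoneum (labelled 4 h). The PBS-primed BM group holds 2 labelled samples and 3 further plates whose cells carry a group but no sample. The deposited cell annotation places the labelled samples in batch 7 and these plates in batch 6. The LPS-primed BM group holds 2 labelled samples and 1 batch 6 plate (271 cells), and the PBS-primed PB group holds 2 labelled samples and 2 batch 6 plates (348 cells). Neither injection nor plate is tied to a named mouse, and plates of a group may share animals.

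Neutrophils mature in the bone marrow through promyelocyte, myelocyte, metamyelocyte and band stages and then leave for the blood as segmented cells. Granule proteins are made in waves along this path. Those of azurophil (primary) granules come first, those of specific (secondary) granules such as lactoferrin, lipocalin 2 and cathelicidin follow in myelocytes and metamyelocytes, and gelatinase and secretory vesicle proteins come last. Cathelicidin is stored as a precursor in specific granules, and after cleavage its peptide disrupts bacterial membranes.

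Camp (chromosome 9, 109749889 to 109751970, minus strand, in mm9, the build to which the reads were aligned) lies 570 kb from Ngp (chromosome 9, 110322254 to 110325514, plus strand), which encodes a cathelicidin-related granule protein. Ltf (chromosome 9, 110921796 to 110945270, plus strand), which encodes the iron-binding lactoferrin, lies a further 596 kb along. Chil3, the gene of the chitinase-like protein Ym1, is on chromosome 3. Its bases shown here precede the start that RefSeq gives and lie inside the longer gene span of the mm9 annotation (105950472 to 106022425), in which another transcript starts further upstream. The bases just upstream of the starts of these granule genes are shown beside those of Il1b, a gene that was lower in the Camp-high cells, because the first 4 moved together. The bases were taken from RefSeq upstream windows on GRCm38.p6 and found by exact match in mm9, and bases that overlap an annotated exon were left out. Capitals mark matches to TTNNGNAA on either strand, a core that C/EBP transcription factors can bind. C/EBP factors are known drivers of granule gene transcription.

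Camp, chr9:109751971-109752120, minus strand: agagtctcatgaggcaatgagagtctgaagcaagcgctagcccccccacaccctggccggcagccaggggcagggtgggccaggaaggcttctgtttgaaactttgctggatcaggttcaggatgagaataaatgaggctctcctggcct

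Ngp, chr9:110322162-110322253, plus strand: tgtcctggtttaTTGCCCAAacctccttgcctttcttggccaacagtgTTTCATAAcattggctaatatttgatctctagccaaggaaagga

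Ltf, chr9:110921646-110921795, plus strand: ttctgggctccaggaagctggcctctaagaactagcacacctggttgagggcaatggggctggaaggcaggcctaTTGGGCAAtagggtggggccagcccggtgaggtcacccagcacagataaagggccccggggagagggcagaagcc

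Chil3, chr3:105970483-105970632, minus strand: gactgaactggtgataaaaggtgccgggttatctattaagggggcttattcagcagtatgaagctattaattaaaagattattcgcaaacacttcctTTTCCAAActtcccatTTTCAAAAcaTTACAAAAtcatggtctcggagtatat

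Il1b, chr2:129196876-129197025, minus strand: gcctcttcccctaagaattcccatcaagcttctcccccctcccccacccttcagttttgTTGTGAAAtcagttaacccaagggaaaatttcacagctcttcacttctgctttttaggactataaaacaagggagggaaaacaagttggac

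Ngp, Ltf, Chil3 and Il1b each held at least 1 match, and the Camp stretch held none. Over the 250 bases upstream, a match was present in 36.9% of 27025 genes, in 33.0% of the 466 matched genes that were higher in Camp-high cells and in 31.2% of the 657 matched genes that were lower. The share was 28.8% among the 997 matched genes kept in neither direction, so the letters were about as common in each set. The AP-1 letters TGANTCA, sought because AP-1 genes were lower in Camp-high cells, were present in 4.51% of the higher and 5.18% of the lower genes. A match is a string of letters and not a measured binding site.

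Camp was present in every resting marrow cell, with at least 13 UMIs. The median Camp share of the Camp-high tertile ran from 1.95% to 3.16% of UMIs over the 5 plates, and that of the Camp-low tertile from 0.0846% to 0.217%. The step across the upper cut differed between plates: in PBS-primed BM sample 1 the highest middle cell was at 0.562% and the lowest Camp-high cell at 0.649%, in PBS-primed BM sample 2 they were at 1.04% and 1.28%, and in batch 6 plate 2 at 1.36% and 1.77%. At the lower cut the Camp-low cells ended between 0.113% and 0.326% and the middle cells began between 0.132% and 0.327%. The tertiles are cuts of 1 ranked measure. PBS-primed PB neutrophils held far less Camp, with 54 of 90 and 49 of 86 cells of the labelled samples at 0 UMIs and plate medians of 0.0212% and 0.0145% in batch 6.

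**Figure D1:**
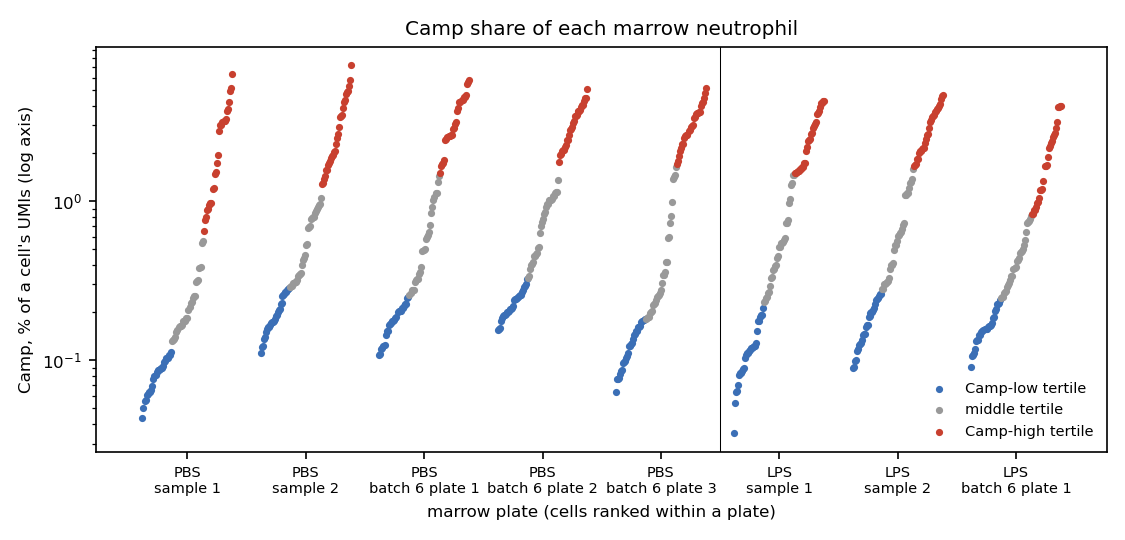
Camp share of each marrow neutrophil, in percent of the cell's UMIs on a log axis, with cells ranked along the horizontal axis within each plate and coloured by tertile (5 PBS plates left of the line, 3 LPS plates right of it). Camp-high medians lie between 1.95% and 3.16% in the PBS plates.

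Camp-high cells were larger libraries in 4 of the 5 plates. Their median UMI count was 88629 to 164332 there, against 60422 to 70673 in the Camp-low cells of the same plates. PBS-primed BM sample 1 stood apart, with medians of 49892 UMIs in Camp-high, 19898 in middle and 72443 in Camp-low cells. At equal depth of 5000 UMIs a Camp-high cell showed a median of 660 to 880 genes and a Camp-low cell 523 to 769 in the other 4 plates, while sample 1 had 457 and 650. Batch 6 plate 3 consists of 2 libraries of 45 and 44 cells that share 42 well barcodes, and they gave 17 and 12 Camp-high cells. None of the 144 Camp-high cells and 19 of the 144 Camp-low cells were in cluster 1 of the clusters that the authors deposited.

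The ERCC share was lower in Camp-high cells on every plate. ERCC molecules are synthetic RNAs added to each lysed cell, so their share falls when a cell yields more RNA of its own. The authors deposited 1 ERCC ratio per cell, with a denominator that is not given in the sources used here. The tertile medians were 0.337 to 0.364 in Camp-high, 0.398 to 0.513 in middle and 0.481 to 0.592 in Camp-low cells. The mean difference of the plate medians, Camp-high minus Camp-low, was -0.173 (SD 0.0359, n = 5 plates), and an exact two-sided sign-flip permutation test gave p = 0.0625, the smallest value that 5 plates allow. The direction was the same in the 3 LPS plates. Over all 8 marrow plates, a set put together after these values were seen, the mean difference was -0.162 (SD 0.033), with an exact two-sided p of 0.0078125, the smallest that 8 plates allow.

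**Figure D2:**
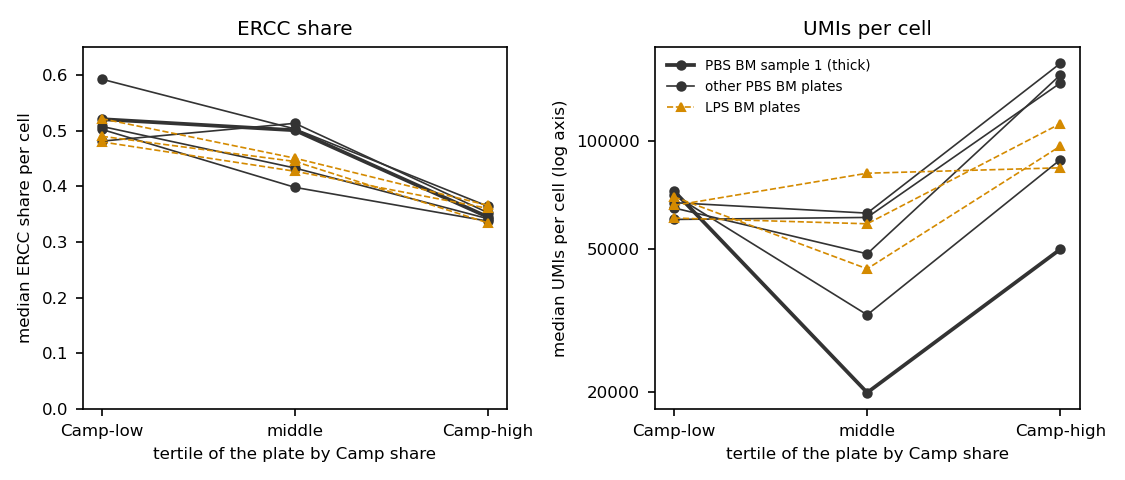
Median ERCC share per cell (left) and median UMIs per cell on a log axis (right) for the Camp-low, middle and Camp-high tertile of each marrow plate, 1 line a plate. In all 8 plates the Camp-high tertile has the lower ERCC share, between 0.334 and 0.366, and PBS BM sample 1 (thick line) has the fewest UMIs in its middle and Camp-high cells.

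Besides Camp, the Camp-high cells held more transcripts of specific granule proteins and of the phagocyte oxidase, and fewer of receptors, cytokines and immediate early genes of the mature neutrophil. Of 10970 genes, 2637 had at least 50 thinned UMIs over both tertiles of the 5 plates. Of these, 576 (21.8%) were higher in the Camp-high tertile of at least 4 plates and 218 of them in all 5. A further 806 (30.6%) were lower in at least 4 plates, 366 of them in all 5. These shares are what the rule kept and nothing is read from their size. Without thinning the balance turned, with 1819 genes higher and 1253 lower of 7443. The kept higher genes made up 60.5% of the UMIs of a Camp-high cell and 39.9% of those of a Camp-low cell. The middle tertile lay between the other 2 for 59.2% of the higher and 61.4% of the lower genes, against 24.9% of the genes kept in neither direction. The kept genes were chosen for a gap between the outer tertiles, and the others had a median log2 difference of 0. A middle value falls more readily inside a wide gap, so nothing is read from the contrast of these shares.

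Most specific granule genes were higher in Camp-high cells. Of the 22 genes of that list, 21 had enough UMIs, 16 were higher in Camp-high cells, 1 was lower (Hp, haptoglobin) and 4 were kept in neither direction. The list also holds the oxidase genes Cybb and Cyba and the receptor gene Ltb4r1, which are among the higher ones. The list's median log2 difference was 1.07, against -0.11 over all 2637 genes, of which 21.8% were higher and 30.6% lower. Ltf had levels of 80.6, 85.9, 97.4, 88.8 and 92.3 in the Camp-high tertiles of samples 1 and 2 and batch 6 plates 1 to 3, and of 2.44, 4.70, 6.64, 6.93 and 5.03 in the Camp-low tertiles. The ranges lay far apart, and the median log2 difference over plates was 4.18 (range 3.67 to 5.01). Ngp had levels of 145, 224, 230, 237 and 270 in Camp-high and 5.93, 17.3, 17.8, 18.7 and 15.4 in Camp-low cells, a median log2 difference of 3.69. Sample 1 was the lowest plate for both genes in both tertiles.

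Chil3 had a median difference of 4.5 on the log2 scale. Its level was 30.4, 40.9, 37.2, 39.4 and 35.4 in Camp-high and 0.778, 2.17, 1.36, 2.87 and 1.52 in Camp-low cells. Chil3 was seen in 93.1% of Camp-high and 72.9% of Camp-low cells. Lcn2, which encodes the siderophore-binding protein lipocalin 2, differed less, because Camp-low cells still held 20.1 to 55.7 UMIs against 77.2 to 147 in Camp-high cells (median log2 difference 1.63). Cd177, a surface protein of specific granule membranes, had levels of 7.93 to 10.5 in Camp-high and 1.67 to 5.07 in Camp-low cells, and Mmp8, a neutrophil collagenase, had 28.4 to 45.5 and 17.4 to 30.3, with overlap. Cd177 and Mmp8 were picked from the list after their values were seen. Across the cells of a plate (83 to 92 cells), the Camp share correlated with the Ngp level with a Spearman rho of 0.842 to 0.887, with Ltf of 0.805 to 0.855, with Lcn2 of 0.655 to 0.736 and with Chil3 of 0.559 to 0.761. These are descriptions, since all cells of a plate share a library and the values of a cell share its depth.

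The phagocyte oxidase and a group of enzymes and membrane proteins followed the granule genes. Cybb and Cyba are members of both the oxidase and the specific granule list, so these lists are not separate groups. Cybb, which encodes the catalytic gp91phox subunit of the NADPH oxidase, had levels of 21.9, 13.8, 24.6, 16.2 and 20.6 in Camp-high and 1.11, 2.40, 4.39, 3.87 and 3.83 in Camp-low cells (median log2 difference 2.47). Cyba and Ncf1, which encode further oxidase subunits, were higher as well, and Rac2, the small GTPase that takes part in switching the enzyme on, went in neither direction, with 6.30 to 13 against 8.25 to 15.4 UMIs. Serpinb1a, an inhibitor of neutrophil serine proteases, was the only member of the primary granule list with enough UMIs. It had 3.52 to 6.46 UMIs in Camp-high and 0.148 to 1.27 in Camp-low cells.

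Among the largest differences were genes outside the lists. Lta4h, the enzyme that makes the neutrophil attractant leukotriene B4, had levels of 1.30 to 3.68 in Camp-high and 0.0741 to 0.233 in Camp-low cells, with no overlap. Inhba, which encodes the activin A subunit, had 0.963 to 1.36 and 0.037 to 0.107. Cpne3, a calcium-dependent membrane-binding copine, had 1.67 to 5.61 and 0.367 to 0.966. Golim4, a Golgi membrane protein, had 1.40 to 2.50 and 0.037 to 0.367, and Trp53inp2, an autophagy regulator, had 0.70 to 1.52 and 0 to 0.30. Tbcb, a tubulin-folding cofactor, was also among the 10 largest median differences but varied between plates, with log2 values of 0.18 to 3.68, and its level reached only 0.593 UMIs.

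S100a8 and S100a9, the calprotectin genes that take the largest shares of a neutrophil's mRNA, hardly differed. S100a8 had levels of 949.7 to 1092 in Camp-high and 776 to 999 in Camp-low cells, and the 2 ranges overlapped. S100a9 had 505 to 616 and 447 to 529, with a median log2 difference of 0.22. Anxa1, the anti-inflammatory annexin A1, had 39.9 to 62.5 against 13 to 20.1 UMIs, and Anxa3 had 1.26 to 2.80 against 0.0357 to 0.80. Of the 10 calprotectin, S100 and annexin genes, 7 had enough UMIs, and these 4 were higher while S100a6, S100a11 and Anxa2 were lower. S100a6 had a mean level of 10.6 against 22.7, S100a11 of 24.5 against 43.0 and Anxa2 of 6.11 against 9.37, each lower in 5 of 5 plates.

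**Figure D3:**
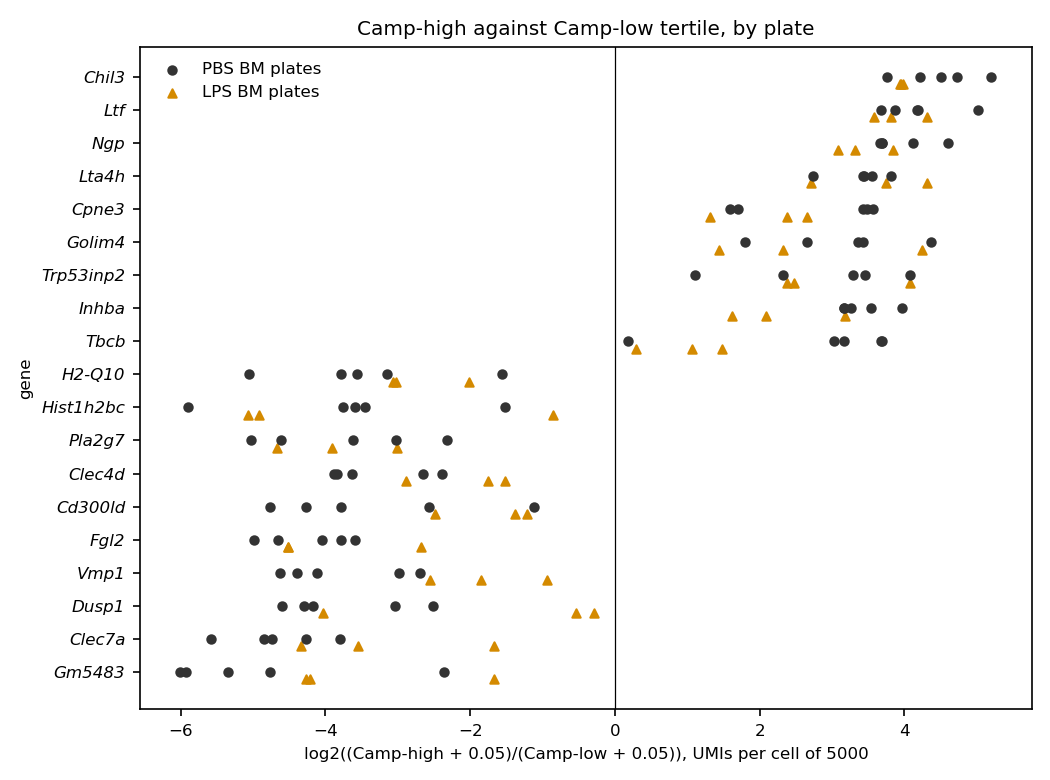
Log2 difference between the Camp-high and Camp-low tertile for named genes among those furthest above and below zero in resting marrow, 1 point a plate (5 PBS plates, dots; 3 LPS plates, triangles), on the scale log2((high + 0.05)/(low + 0.05)) of UMIs per cell. All points of Chil3, Ltf and Ngp lie above 3, and all points of Clec7a and Fgl2 lie below -1.5 in both groups.

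In the other direction stood genes that mature neutrophils use to sense and to signal. Of 28 genes listed as mature or blood-like, 27 had enough UMIs, 24 were lower in Camp-high cells and none was higher, with a list median of -1.53 on the log2 scale. Over all 2637 measured genes, 30.6% were lower and 21.8% were higher. Csf3r, the receptor of the growth factor G-CSF, had levels of 1.70, 4.83, 1.64, 2.23 and 1.93 in Camp-high and 19.0, 14.3, 8.18, 9.43 and 18.3 in Camp-low cells. Cxcr2, the chemokine receptor that draws neutrophils out of the marrow, had 1.93 to 6.33 and 7.53 to 10.1 UMIs, and Selplg, the selectin ligand PSGL-1, had 1.21 to 1.69 and 3.32 to 7.45. Cxcr4, the receptor that holds cells in the marrow, went in neither direction. Retnlg, a resistin-like secreted protein, had 69.4 to 132 UMIs in Camp-high and 253 to 348 in Camp-low cells. The Camp-low and Camp-high ranges did not overlap for Csf3r, Cxcr2, Selplg and Retnlg. These genes had been kept for their direction and named for their level or change. How common such ranges are among all genes was not counted, so nothing is read from it.

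Several single genes were lower in Camp-high cells by a wide margin. Clec7a, the β-glucan receptor dectin-1, had 0.037, 0.20, 0.0714, 0 and 0.069 UMIs in Camp-high and 1.63, 3.43, 3.18, 2.33 and 3.38 in Camp-low cells, and was seen in 5.56% and 45.8% of cells. Clec4d, a related C-type lectin, had 0.20 to 0.667 and 2.21 to 6. Il1b, which encodes interleukin 1β, had 0.185, 0.233, 0.286, 0.133 and 0.862 UMIs in Camp-high and 4.85, 3.87, 3.07, 1.57 and 10.4 in Camp-low cells. Fgl2, a secreted fibrinogen-like protein, reached 0.172 at most in Camp-high and 2.62 in Camp-low cells, and Pla2g7, which inactivates platelet-activating factor, had 0.0333 to 0.259 and 0.70 to 3.74. Vmp1, an autophagy protein, Cd300ld, a paired receptor, Hist1h2bc, a histone, and H2-Q10, a secreted class I molecule, were also among the 10 genes furthest lower, with Gm5483 and Dusp1. Gm5483 (0.069 to 1.59 against 4.79 to 19.3 UMIs) belongs to the stefin A family of near-identical copies, as Stfa1 and Stfa2l1 do, and how its reads were split among the copies is uncertain.

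Of the 15 immediate early and heat shock genes, 8 had enough UMIs and Fos, Junb, Ier2 and Dusp1 were lower, while Ier3, Dnajb1, Hsp90aa1 and Hspa8 went in neither direction. Dusp1, a phosphatase that switches off MAP kinases, had 0.0667 to 1.34 against 2.23 to 8.19 UMIs. Junb, an AP-1 subunit, had 0.267 to 0.552 against 1 to 4.59. Among 15 measured transcription factors of the lineage, 12 were lower and 1 was higher, against 30.6% lower and 21.8% higher over all 2637 genes. The higher one was Cebpe, C/EBPε, which is required for specific granules and was singled out after its values were seen. Its levels were 1.30, 1.53, 1.79, 1.37 and 2.00 in Camp-high and 0.111, 0.90, 0.143, 0.333 and 0.379 in Camp-low cells. Of 8 measured interferon-stimulated genes, 6 were lower, among them Rsad2, the antiviral enzyme viperin, with 0.0333 to 0.333 against 1.10 to 1.48 UMIs.

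Other gene groups showed no common direction. Of 66 measured genes with ribosomal protein symbols (the kinase gene Rps6ka1 among them), 17 were higher, 10 were lower and 39 went in neither direction, which is near the shares over all genes for the higher set and below them for the lower set. Of 10 measured glycolysis genes, 4 were higher and 2 lower, and of 17 actin and motility genes, 6 were higher and 3 lower. Of 11 measured iron and antioxidant genes, 4 were higher (Ltf, Lcn2, Prdx5 and Prdx6) and 6 were lower, including the ferritin genes Fth1 and Ftl1 and the thioredoxin inhibitor Txnip. Of 21 cell cycle genes in the table only 3 had enough UMIs, and they split 3 ways: H2afz higher, Cks2 lower and Hmgb2 in neither direction. Mcl1, the survival factor with a short half-life, had 1.27 to 2.74 against 2.85 to 6.83 UMIs. Mmp9, gelatinase B, a protein of the later gelatinase granules, had 16.6 to 19.3 against 17.0 to 21.1, so that its ranges overlapped.

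Markers of other cell types were near 0 in both tertiles. B cell markers summed to 0 to 0.0345 UMIs per cell in Camp-high and 0 to 0.103 in Camp-low plates, T cell markers to 0.069 to 0.179 and 0 to 0.138, and erythroid markers to 0 in both. Cd3e and Cd3g had no UMI in any resting marrow cell. Kit and Meis1, markers of progenitors, summed to 0 to 0.367 in Camp-high and 0 in Camp-low plates. The 6 monocyte and macrophage markers of the table summed to 4.03 to 6.33 and 2.39 to 4.70, mostly from Ly6c2, which neutrophils also express, at a mean of 4.93 in Camp-high and 2.80 in Camp-low plates. Csf1r, the receptor of macrophage colony-stimulating factor, was at 0.117 and 0.795, Ccr2 had no UMI and F13a1 and Irf8 were at 0 in both tertiles. The part of these markers in the comparison was not tested. The 9 neutrophil markers summed to 1631 to 1888 and 1645 to 1846 UMIs, mostly from S100a8 and S100a9. All 9 were present in both tertiles, so both carried the neutrophil label. The near-equal sums hide opposite directions. S100a8, S100a9, Ly6g, Itgam and Mmp8 were kept as higher in Camp-high cells, and Csf3r, Cxcr2, Retnlg and Mmp9 as lower.

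The same comparison was tested in LPS-primed BM neutrophils, whose cells had no part in keeping genes by the rule above. The gene lists, in contrast, were drawn up with earlier results of these data known. Cells of each LPS plate were ranked and thinned in the same way (89 Camp-high and 89 Camp-low cells in 3 plates). The Camp-high cells again held more granule transcripts and fewer transcripts of mature neutrophil genes. Of 3239 genes, 71 (2.19%) were higher and 97 (2.99%) were lower in Camp-high cells at an adjusted p under 0.05 (edgeR's quasi-likelihood test with plate as a block and Benjamini-Hochberg adjustment). The p-values measure the spread between plates. Of the 576 genes higher in resting Camp-high cells, 563 were tested, 59 (10.5%) were called higher and 0 lower in edgeR. At an unadjusted p under 0.05 these were 143 and 2, and DESeq2 called 53 and 0. Of the 806 lower genes, 794 were tested, 96 (12.1%) were called lower and 2 higher. Of the 1223 tested genes kept in neither direction, 10 were called higher and 1 lower (Arid4a, a chromatin-binding protein, with 0.103 to 0.533 against 1.07 to 1.7 UMIs). Leaving out LPS-primed BM sample 2 took the 168 calls to 80, leaving out sample 1 to 94 and leaving out the batch 6 plate to 98.

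Ltf had levels of 83.6, 85.0 and 73.2 in the Camp-high tertiles of LPS-primed samples 1 and 2 and the batch 6 plate and of 4.17, 6 and 6.07 in the Camp-low tertiles (log2 fold change 4.01, SE 0.18, adjusted p = 6.47e-54 by edgeR). Ngp gave 184, 215 and 168 against 18.5, 14.9 and 19.8 (log2 fold change 3.51, SE 0.15, adjusted p = 4.84e-60), and Chil3 gave 30.3, 32.3 and 41.9 against 1.93, 2.03 and 2.62 (4.08, SE 0.22, adjusted p = 1.49e-43). All 3 were higher in 3 of 3 plates with no overlap. Of 22 tested specific granule genes, 10 rose and 0 fell in edgeR (12 and 0 at an unadjusted p under 0.05, and 9 and 0 in DESeq2), with a list median of 0.73 against 0.11 over all genes. The count of risen genes was 5 without LPS-primed BM sample 2 and 6 with a split at the median. Over all 3239 tested genes, 2.19% rose. Cebpe, with 1.07, 1.5 and 0.621 against 0.0333, 0 and 0.31 UMIs, rose by 3.54 (SE 0.76, adjusted p = 0.000341). Cybb, Lta4h, Cpne3, Golim4, Trp53inp2 and Inhba also rose, with adjusted p between 7.33e-21 and 0.00998 by edgeR, and Serpinb1a rose by 1.96 on the log2 scale (SE 0.33), with levels of 5.47 to 6.93 against 1.62 to 1.83. Tbcb did not pass (log2 fold change 1.28, adjusted p 0.777 by edgeR).

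Of the 27 tested genes listed as mature or blood-like, 19 fell and 0 rose in edgeR (21 and 0 at an unadjusted p under 0.05, and 18 and 0 in DESeq2). The list median was -1.21. The count of fallen genes was 10 without LPS-primed BM sample 1, 11 with no replicate block and 9 with a split at the median. Over all 3239 tested genes, 2.99% fell. Il1b had 0.10, 0.30 and 0.276 UMIs in Camp-high and 8.53, 4.63 and 3.03 in Camp-low cells of LPS-primed marrow (log2 fold change -4.35, SE 0.44, adjusted p = 1.43e-16 by edgeR). Csf3r had 3.77, 2.90 and 2.90 against 17.0, 11.9 and 7.86 (-1.79, SE 0.26, adjusted p = 9.43e-09). Cxcr2 (log2 fold change -1.03, SE 0.25) and Selplg (-1.18, SE 0.31) fell as well. Clec7a, Fgl2, Clec4d, Pla2g7, Cd300ld, Hist1h2bc, H2-Q10 and Gm5483 fell with adjusted p between 6.12e-14 and 0.0267 by edgeR. Dusp1 fell with an adjusted p of 0.0476, close to the threshold, on 1.87, 0.70 and 0.517 UMIs in Camp-low cells. Vmp1 did not pass (log2 fold change -1.77, adjusted p 0.173 by edgeR).

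Other groups were less uniform in LPS-primed marrow. Cybb and Cyba, which the specific granule list also holds, rose, as did Ncf1. Ifit1, Rsad2 and Oasl2 fell, 3 of 11 tested interferon-stimulated genes, against 2.99% of all 3239 tested genes. S100a8 and S100a9 did not pass (log2 fold changes 0.21 and 0.14, adjusted p 0.205 and 0.58 by edgeR). Of 68 genes with ribosomal protein symbols 0 passed in edgeR and in DESeq2, and 2 were higher and 1 lower at an unadjusted p under 0.05 in edgeR. Of 10 glycolysis genes 0 passed in edgeR, DESeq2 or at an unadjusted p under 0.05 in edgeR, and of 5 cell cycle genes 0 passed in either tool, with 1 higher at an unadjusted p under 0.05. The 2 genes that went against their resting direction were Dgkd, a diacylglycerol kinase, and Far1, a fatty acyl reductase. They and Arid4a were named after their values were seen. Dgkd rose by 4.41 (SE 1.24) on at most 0.655 UMIs, and Far1 rose by 1.83 (SE 0.52), from 0.50, 0.567 and 0.31 to 1.90, 1.37 and 1.31 UMIs.

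The largest fitted rises and falls rested on few UMIs. Tmem216, a protein of the ciliary base, had 55 thinned UMIs in the 89 Camp-high and 0 in the 89 Camp-low cells, which is at least 18.3-fold higher against a floor of 3 UMIs over the group. Fmnl2, a formin that elongates actin filaments, had 46 and 0, at least 15.3-fold higher. Man1c1 and Gfpt1, both enzymes of glycan synthesis, had 26 and 0 each, at least 8.67-fold higher, but 1 cell held 69.2% of the Man1c1 UMIs. Stx8, a vesicle fusion protein, had 47 UMIs and 1 UMI, a ratio of 47.0 with a 95% counting interval of 8.03 to 1895, and 1 cell held 66.7% of them. Aqp9, a water and glycerol channel, had 0 and 27, at least 9-fold lower. Sycp2, Gm5150 and Jaml completed the 5 largest falls with Aqp9 and Il1b. Intervals and floors cover counting error only.

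The difference between the LPS and the resting contrast was tested across the 3239 genes. With edgeR, 1 gene passed, Lrg1, and 136 had an unadjusted p under 0.05; DESeq2 also called 1, library size scaling called 0, and the labelled samples alone called 6 of 2748 genes. Lrg1 encodes a secreted leucine-rich glycoprotein of neutrophil granules. In resting marrow its level was 5.04, 4.80, 8.07, 8.47 and 9.48 in Camp-high and 1.33, 1.87, 4.68, 5.30 and 5.34 in Camp-low cells. In LPS-primed marrow it was 10.03, 12.5 and 15.1 in Camp-high and 9.57, 17.6 and 17.1 in Camp-low cells. The log2 difference, LPS minus resting, was -1.38 (SE 0.30, adjusted p = 0.0307 by edgeR), and library size scaling gave -1.28 (adjusted p = 0.0554). The resting part of this gene's difference came from the cells by which genes were kept and was known when it was singled out. Its p-value is therefore not independent of them.

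**Figure D4:**
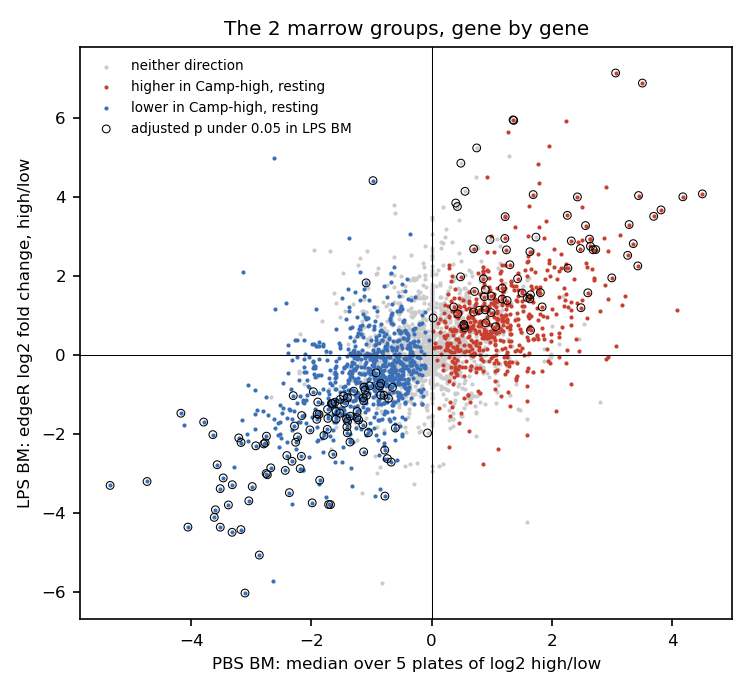
Log2 difference of Camp-high against Camp-low cells for each gene tested in both marrow groups, with the median over 5 PBS plates on the horizontal and the edgeR log2 fold change of the LPS plates on the vertical axis. Red and blue points were chosen by their horizontal position, and of the 168 ringed genes, called in LPS marrow, 155 were called in the direction kept in resting marrow.

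Blood neutrophils were set beside the marrow tertiles. PBS-primed PB neutrophils of the 2 labelled samples were tested against all PBS-primed BM neutrophils of the 2 labelled samples, which include the cells used above, so that both comparisons share the marrow cells. Blood held fewer granule transcripts than marrow and more of Il1b, Csf3r and immediate early genes. Of 4100 genes, 62 (1.51%) were higher and 78 (1.9%) were lower in blood (edgeR, adjusted p under 0.05, n = 2 samples against 2). This split depended on the scaling: with library size in place of TMM factors, 171 genes were higher and 44 lower, and the median of all genes moved from 0.04 to 0.56 on the log2 scale. Values here are relative to the TMM scaling.

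Ltf had 0.0222 and 0.0465 UMIs per cell in the 2 blood samples and 28.7 and 35.0 in the 2 marrow samples (log2 fold change -10.29, SE 0.32, adjusted p = 9.13e-08 by edgeR), and the batch 6 plates had 0.705 and 0.393 in blood and 38.6 to 42.6 in marrow. In the labelled samples Chil3 had 2 thinned UMIs in 176 blood cells and 2402 in 175 marrow cells, a ratio of 1208 with a counting interval of 334 to 9979. The gap was smaller in batch 6, where Chil3 had 0.614 and 0.440 UMIs in the blood plates and 13.2 to 15.2 in the marrow plates. Ngp had 0.367 and 0.593 against 53.5 and 93.9 in the labelled samples, and 2.97 and 2.18 against 103 to 112 in batch 6. Of 21 tested specific granule genes, 14 fell in blood and 0 rose in edgeR with TMM factors (16 and 0 at an unadjusted p under 0.05, and 15 and 0 in DESeq2), and with library size scaling 12 fell and 1 rose. Over all 4100 genes, 1.9% fell with TMM factors. Camp-low marrow cells lay between blood and the Camp-high cells: their Ltf level was 2.44 to 6.93 and their Ngp level 5.93 to 18.7.

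Of 28 tested genes listed as mature or blood-like, 8 rose in blood and 0 fell in edgeR with TMM factors (12 and 1 at an unadjusted p under 0.05, and 10 and 0 in DESeq2). This list, like the granule list, was drawn up with earlier results of these data known, so its counts in blood are not independent support. The count of risen genes was 13 with library size scaling and with both batches, and 0 of 26 against the middle tertile of marrow. Over all 4100 genes, 1.51% rose with TMM factors. Il1b had 29.1 and 32.6 UMIs in blood against 2.29 and 2.73 in marrow (log2 fold change 3.12, SE 0.20, adjusted p = 1.46e-05 by edgeR). Its level was 42.5 and 44.1 in the batch 6 blood plates and at most 10.4 in any Camp-low and 16.4 in any middle tertile of resting marrow. Csf3r had 33.5 and 31.5 in blood against 14.4 and 9.60 in marrow (0.94, SE 0.21, adjusted p = 0.0417). Clec7a, Dusp1, Junb, Fos, Selplg, Malat1 and H2-Q10 also rose, with adjusted p between 0.00148 and 0.0359 by edgeR. Fgl2, Clec4d, Pla2g7 and Vmp1 did not pass, and the fitted sign of Clec4d turned with the scaling (-0.11 with TMM factors, 0.42 with library size).

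Not every gene ordered the cells as Camp did. Retnlg was lower in Camp-high than in Camp-low marrow cells and lower still in blood, with 53.9 and 54.3 UMIs against 221 and 195 in marrow (log2 fold change -2.45, SE 0.11, adjusted p = 7.29e-07 by edgeR). S100a8 and S100a9, close to equal between the marrow tertiles, fell in blood to 393 and 394 and to 197 and 200 UMIs, from 942 and 957 and from 505 and 575. Mmp9, which overlapped between the tertiles, fell in blood as well, from 15.9 and 18.0 to 11.9 and 10.7 UMIs (adjusted p = 0.0134 by edgeR). Gm5483, lower in Camp-high cells, was also lower in blood in the labelled samples (-1.61, SE 0.34, adjusted p = 0.035 by edgeR). In batch 6 its ranges overlapped, with 4.74 and 3.61 UMIs in the blood plates and 6.27, 3.47 and 2.58 in the marrow plates.

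Genes of other cell types were also higher in blood. Alb, Mup3, Serpina1e and Ttr, genes of plasma proteins made by hepatocytes, summed to 6.78 and 9.23 UMIs per cell in the 2 blood samples and to 0 in the 2 marrow samples, to 0.0114 and 0 in the 2 batch 6 blood plates, and to 0, 0.407 and 0.0112 in the 3 batch 6 marrow plates. Pf4 and Ppbp, chemokine genes of platelets, and H2-Ab1, an antigen presentation gene, also passed in blood and were named after their values were seen (adjusted p 0.0185, 0.0178 and 0.0274 by edgeR). The 3 platelet markers of the table summed to 1.62 and 1.63 UMIs per cell in the blood samples, 11.6 and 5.52 in the batch 6 blood plates and at most 0.0119 in any marrow unit. The 4 B cell markers summed to 0.367 and 1.83 in the blood samples and to at most 0.0899 in marrow. The part of these genes in the blood comparison was not tested. Ctla2a, a cysteine protease inhibitor, had 2.57 and 2.73 UMIs in the blood samples, 10.02 and 3.57 in the batch 6 blood plates and 0 in both marrow samples, at least 154-fold higher in blood. The largest falls after Chil3 and Ltf, namely Tsg101, Spp1 and Tmem159, had 0 UMIs in the 2 labelled blood samples. In the labelled samples 1 cell held 57.8% of the Tsg101 and 54.7% of the Spp1 UMIs. The batch 6 plates did not repeat these falls for Tsg101 and Tmem159. Tsg101 had 0.330 and 0.107 UMIs there in blood and 0.0952 to 0.169 in marrow. Tmem159 had 0 and 0.143 in blood and 0.0595 to 0.112 in marrow, and Spp1 had 0 in blood and 0 to 0.044 in marrow.

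**Figure D5:**
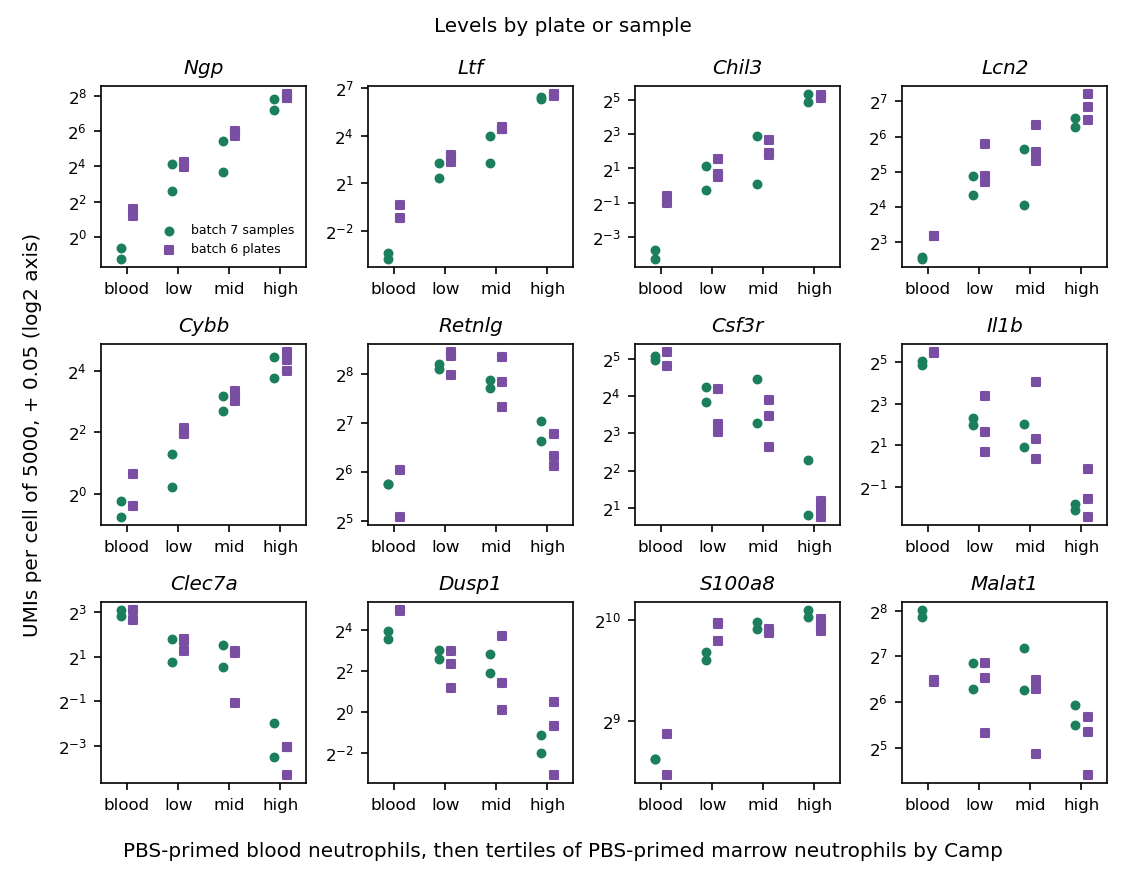
Level of 12 genes (UMIs per cell of 5000, plus 0.05, on a log2 axis) in PBS-primed blood and in the Camp-low, middle and Camp-high tertile of PBS-primed marrow, 1 point a plate or sample (circles, labelled samples of batch 7; squares, batch 6 plates). Ngp, Ltf and Chil3 are lowest in blood and highest in Camp-high cells, Il1b and Clec7a are highest in blood, and Retnlg is lowest in blood although its Camp-low levels lie above its Camp-high levels.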

How the data were processed

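SCRB-seq data of single neutrophils were analysed. The authors trimmed reads (Cutadapt 1.15), aligned them to mm9 (STAR 2.6.0a) and counted UMIs per gene (HTSeq 0.11.2), and the deposited table holds these counts for 1421 cells that had passed their filters. How doublets were treated is not given in the sources used here, and single cells were picked by hand. The deposited ERCC ratio is a fraction per cell. Cell clusters were taken from the authors' annotation.

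Marrow cells were ranked by Camp share within a plate, Camp was removed, and each cell was thinned to 5000 UMIs (all 710 marrow and 348 resting blood cells had enough). The half-plates of batch 6 plate 3 were joined. Levels are means per cell, and a pseudocount of 0.05 was used for log2 differences. For tests, thinned UMIs were summed per plate and tertile (135000 to 150000 UMIs) or per sample (415000 to 460000) and fitted across all genes with edgeR 4.0.16 (TMM, quasi-likelihood, Benjamini-Hochberg), after checks on simulated data. DESeq2 1.42.0 and limma 3.58.1 were alternatives. The resting plates entered the LPS fit to share the estimate of spread. Plates or samples, not cells, are the units. A plate of batch 6 has no sample label, so p-values measure spread between plates, which may be technical.

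Named genes were Ltf, Ngp, the 10 largest rises and 10 largest falls in resting marrow with a level of at least 0.25 and no cell over 20% of the UMIs, up to 4 members of each of 16 lists, and for each test the 5 largest rises and falls past the threshold. The members, lists and markers were chosen with earlier results of these data known. Replicate numbers of blood and marrow samples did not pair them (correlation of deviations -0.0003). Some named genes are not reported here.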

Additional observations from a re-analysis of the deposited data

Results flagged for a closer look

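In the plates of resting marrow, 32 sets of 5 values were searched for a plate far from the others, which chance alone finds in about 1 of 20 sets, and 1 was found. The log2 difference of Tbcb between Camp-high and Camp-low cells was 0.18 in PBS-primed BM sample 2, against 3.03 to 3.68 in the other 4 plates, where no Camp-low cell held a Tbcb UMI.

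Lrg1 differed in its Camp-high against Camp-low difference between LPS-primed and resting marrow by -1.38 on the log2 scale (SE 0.30, edgeR adjusted p = 0.0307). In the labelled samples alone the value was -2.06 (edgeR adjusted p = 0.0109), and with DESeq2 it was -1.42 (adjusted p = 0.028). With library size scaling it was -1.28 and did not pass (edgeR adjusted p = 0.0554). Lrg1 was higher in Camp-high cells in 5 of 5 resting plates and 1 of 3 LPS plates. The resting part of the difference comes from the cells by which genes were kept, so these p-values are not independent of that choice.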

How the results depend on the processing

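In resting marrow, 576 genes were higher and 806 lower. The counts were 1819 and 1253 without thinning, 182 and 351 with at least 200 UMIs, 218 and 366 when all 5 plates had to show the direction, and with at least 10 UMIs 1013 genes were higher. Leaving out 1 plate (with 4 of 4 plates required) gave 238 to 276 higher and 398 to 447 lower genes. In LPS-primed marrow the 168 calls became 82 with a split at the median in place of tertiles, 111 without a filter, 109 with no replicate block, 90 with the labelled samples alone, and 80 to 98 when 1 LPS plate was left out. Without thinning 30.7% of the calls were higher and with library size 34.6%, against 42.3%. In blood the 140 calls became 215 with library size, 289 without a filter, 271 with DESeq2, 484 of 4438 genes with both batches and a batch term, and 8 against the middle tertile of marrow. They were 123 and 103 without PBS-primed PB sample 1 or 2, and 393 and 627 without PBS-primed BM sample 1 or 2, where the lone sample was assumed to vary like the other group. With a replicate block the blood count was 119, although blood and marrow samples share only a number. The ERCC difference was -0.1617 over 8 plates (exact two-sided permutation p = 0.0078125). Clec4d in blood was -0.11 and turned to 0.37 without thinning, 0.42 with library size, 0.39 with both batches, and lay between -0.28 and 0.037 when 1 sample was left out. The cause of these changes was not tested. Of the alternative values of the named genes in LPS-primed marrow, 398 kept their side of the threshold, 76 (in 12 genes) fell short of it, 1 passed it and 0 turned direction. Depth limits genes under about 0.25 UMIs per 5000, where 1 cell can decide a value.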
